A study of Sus scrofa with 12 samples.

Results

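The enolase ENO1 and 9 further enzymes of glucose breakdown, HK1, HK2, PFKP, ALDOA, TPI1, GAPDH, PGK1, PKM and LDHA, were followed in epithelial cells of the pig oviduct. Members were taken by gene symbol from the table. Of these 10 symbols, 8 stood on a row of the deposited table of 30461 genes, and all 8 passed the filter on low counts that left 14070 genes for testing. No row carried HK1 or PFKP, so these genes are not analysed here. The measurement was 3′ mRNA sequencing of whole samples, with 3 groups of 4 libraries, 12 in all. The first group, called fresh cells, was scraped off the oviduct lining and lysed directly as single cells. The second is spheroids, which are cells that have joined into small 3-dimensional balls in culture, formed in the general culture medium DMEM/F12, with FBS in their library names. The third is spheroids formed in a medium called Incubation Medium, with Diff in their library names. The labels give the composition of neither medium, nor the age, breed or number of pigs, nor the days in culture. The series belongs to a protocol for making uniform spheroids. Nothing says that replicates came from separate animals, so the p-values below measure the spread between these samples, which may be technical.

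Glycolysis splits a molecule of glucose into pyruvate in the cytosol and yields ATP without oxygen. Hexokinase and phosphofructokinase spend ATP early in the pathway. Aldolase and triosephosphate isomerase then make 3-carbon sugars, and the enzymes from GAPDH to pyruvate kinase recover ATP. Lactate dehydrogenase turns pyruvate into lactate and frees the NAD that GAPDH needs. Many of these genes are textbook targets of the hypoxia-inducible factors and of MYC, and the oviduct fluid that surrounds the early embryo contains lactate and pyruvate.

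Levels are given as CPM, counts scaled to a common library size. The libraries held 5045187 to 8603774 counts in genes, and each spheroid library held more than any fresh cell library. Of the 6 epithelium markers listed, 5 had a row. Their summed level was 3727 to 4372 CPM in fresh cells, 5956 to 7393 in DMEM/F12 spheroids and 4141 to 6147 in incubation medium spheroids. Among them, EPCAM was called lower in DMEM/F12 spheroids and CLDN4 lower in incubation medium spheroids. The 5 measured markers of multiciliated cells summed to 1003 to 1145 CPM in fresh cells, 118 to 298 in DMEM/F12 spheroids and 111 to 210 in incubation medium spheroids, and no gene of the list was at 0. The 3 measured secretory cell markers, of 6 listed, summed to 18940 to 29980 CPM in fresh cells, 984 to 2016 in DMEM/F12 and 963 to 2010 in incubation medium spheroids. Of these, OVGP1 and SLPI were called lower in both media and MUC1 higher. The 5 measured markers of dividing cells summed to 18.8 to 32.4 CPM in fresh cells, 225 to 260 in DMEM/F12 and 266 to 387 in incubation medium spheroids. The 6 measured stroma and smooth muscle markers, of 9 listed, summed to 225 to 387 CPM in fresh cells, 1072 to 1221 in DMEM/F12 spheroids and 229 to 539 in incubation medium spheroids. Most of it was TAGLN (means of 266, 1120 and 380 CPM), which was called higher in both media. COL3A1 of the same list was called lower in both, and COL1A1 and PDGFRA were called lower in incubation medium spheroids. Of the 9 leukocyte markers listed, 5 had a row, and these summed to at most 15.0 CPM in any library. Only 2 were tested: PTPRC was called lower in both media and CD14 was called in neither. Endothelium markers summed to 41.6 to 57.5 CPM in fresh cells, 136 to 252 in DMEM/F12 and 91.2 to 148 in incubation medium spheroids. Of the 3 tested, CDH5 and KDR were called higher in both media and PECAM1 lower. The 1 erythrocyte marker with a row was at or near 0 throughout, at most 0.187 CPM. These lists move with the groups compared below, and their part in the results on the enzymes was not tested. In whole samples, fewer cells of a type and less RNA per cell cannot be told apart.

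Nearly every measured enzyme was higher in spheroids than in fresh cells. By edgeR's quasi-likelihood test, with an adjusted p under 0.05 as the threshold for a call, 7 of the 8 enzymes were called higher in DMEM/F12 spheroids, all but TPI1, and 0 were called lower. The background in that comparison, over all 14070 genes tested, was 35.1% called higher and 35.7% called lower. Against fresh cells, 8 of 8 were called higher in incubation medium spheroids and 0 lower, where 35.8% of all genes were called higher and 35.8% lower. All 8 enzymes had every DMEM/F12 library above every fresh library, which held for 32.4% of all genes. The same held for 7 of 8 in incubation medium, the exception again being TPI1, against 32.4% of all genes. The median log2 fold change of the 8 was 2.09 and 2.80 in the respective media, and that of all tested genes was -0.01 in both. The scaling of libraries (TMM) holds the bulk of genes near 0, so higher means relative to other genes and not per cell. The comparisons share the fresh cells, so they are not independent of each other. Together the 8 rows took 0.145% ± 0.0064 (SD, n = 4) of the counts in fresh cells, 0.604% ± 0.0533 in DMEM/F12 and 0.825% ± 0.292 in incubation medium spheroids.

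**Figure D1:**
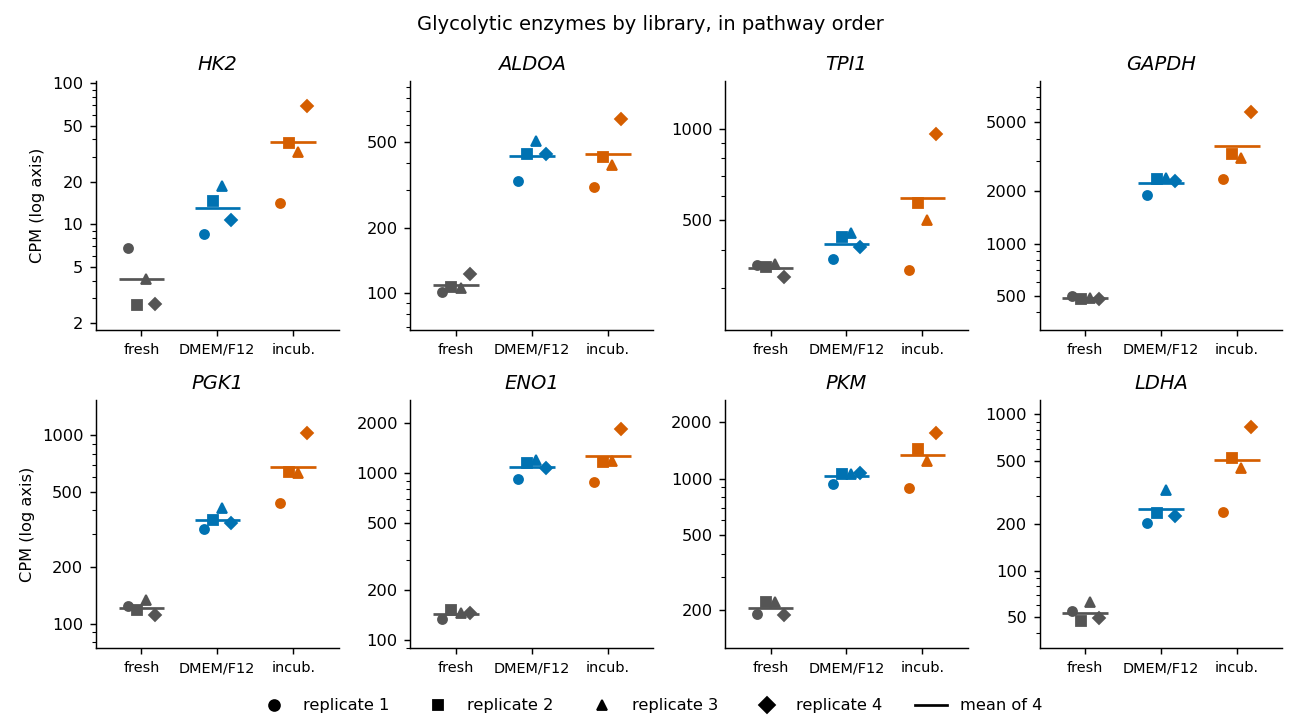
Level of each of the 8 enzymes in the 12 libraries, in CPM on a log axis that differs between panels, with 1 symbol per replicate number and a line at the mean of 4. Fresh cells lie below both spheroid groups in every panel except TPI1, where incubation medium replicate 1 (342 CPM) lies among them, and incubation medium replicate 4 is the highest point in every panel.

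ENO1 (ENSSSCG00025073716) encodes alpha-enolase, the broadly expressed enzyme that takes water from phosphoglycerate to make phosphoenolpyruvate. Its level in fresh cells was 134, 150, 146 and 146 CPM in replicates 1 to 4. In DMEM/F12 spheroids it was 922, 1155, 1204 and 1080 CPM, and in incubation medium spheroids 879, 1174, 1183 and 1843 CPM. Every spheroid library thus stood far above every fresh library, while the spheroid groups overlapped, with incubation medium holding both the lowest and the highest spheroid value. The means of the groups were 144 ± 7.28 CPM (SD, n = 4) for fresh cells, 1090 ± 123 in DMEM/F12 and 1270 ± 407 in incubation medium spheroids. ENO1 was 7.58-fold higher in DMEM/F12 spheroids than in fresh cells (log2 fold change 2.92, SE 0.18, edgeR adjusted p = 6.58e-09). In incubation medium spheroids it was 8.82-fold higher (log2 fold change 3.14, SE 0.18, edgeR adjusted p = 3.64e-09). The media did not differ beyond the spread in ENO1: the log2 difference was 0.22, with a 95% interval of -0.14 to 0.58 and an edgeR adjusted p of 0.376. Without incubation medium replicate 4 that difference was -0.01.

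HK2 (ENSSSCG00025052996), a hexokinase that traps glucose in the cell as glucose phosphate, was the least counted of the 8, with 14 to 514 counts per library. Fresh cells held 6.79, 2.69, 4.11 and 2.74 CPM, DMEM/F12 spheroids 8.52, 14.6, 18.7 and 10.8 CPM, and incubation medium spheroids 14.2, 37.8, 32.6 and 69.0 CPM. The fresh libraries were all lower than the spheroid libraries, with the highest fresh value close to the lowest DMEM/F12 value. Its log2 fold change was 1.67 (SE 0.48, edgeR adjusted p = 0.00664) in DMEM/F12 spheroids and 3.21 (SE 0.46, edgeR adjusted p = 2.13e-05) in incubation medium spheroids. HK2 also had the widest spread within the fresh cells, with a coefficient of variation of 47.0%.

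ALDOA (ENSSSCG00025063489) is the aldolase that cuts fructose bisphosphate into triose phosphates. It measured 101, 107, 106 and 122 CPM in fresh cells, 332, 443, 507 and 442 in DMEM/F12 and 309, 428, 393 and 642 in incubation medium spheroids. Both spheroid groups lay apart from the fresh cells and overlapped each other almost fully. The log2 fold changes against fresh cells were 1.98 (SE 0.19, edgeR adjusted p = 4.18e-07) and 2.02 (SE 0.19, edgeR adjusted p = 3.37e-07). Of its 12 deposited counts 9 were not whole, and where the remaining fractions were assigned was not traced. GAPDH had 4 such counts and the other 6 enzymes at most 2 each.

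TPI1 (ENSSSCG00025032167), which interconverts the triose phosphates, changed least. Its level was 355, 351, 358 and 326 CPM in fresh cells, 372, 440, 452 and 408 in DMEM/F12 and 342, 572, 499 and 959 in incubation medium spheroids. The DMEM/F12 libraries all lay above the fresh cells by a narrow margin, and 3 of 4 incubation medium libraries did. The log2 fold change was 0.27 (SE 0.22) in DMEM/F12 spheroids, which edgeR did not call (adjusted p = 0.288). A fit of only the fresh and DMEM/F12 libraries gave the same size of change and called it (edgeR adjusted p = 0.0125). For incubation medium it was 0.77 (SE 0.22, edgeR adjusted p = 0.00572), and 0.46 without replicate 4 (edgeR adjusted p = 0.00976).

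GAPDH (ENSSSCG00025034278), which oxidises glyceraldehyde phosphate and is often used as a reference gene in PCR, was steady within the fresh cells at 495, 476, 487 and 482 CPM. Its level was 1911, 2345, 2394 and 2301 CPM in DMEM/F12 spheroids and 2359, 3277, 3130 and 5778 CPM in incubation medium spheroids. No spheroid library came near the fresh range. GAPDH rose by a log2 fold change of 2.21 (SE 0.21, edgeR adjusted p = 3.18e-07) in DMEM/F12 spheroids and 2.91 (SE 0.21, edgeR adjusted p = 2.7e-08) in incubation medium spheroids.

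PGK1 (ENSSSCG00025036535), the phosphoglycerate kinase of the first ATP-forming step, was the enzyme whose 3 groups separated fully. Fresh cells held 124, 118, 133 and 111 CPM, DMEM/F12 spheroids 317, 356, 413 and 343 CPM, and incubation medium spheroids 437, 636, 628 and 1034 CPM. The order was the same whichever libraries were set side by side: fresh cells lowest, DMEM/F12 next and incubation medium highest. Against fresh cells its log2 fold change was 1.56 (SE 0.20, edgeR adjusted p = 6.37e-06) and 2.49 (SE 0.20, edgeR adjusted p = 7.48e-08).

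PKM (ENSSSCG00025043420), the pyruvate kinase of most tissues, makes pyruvate and ATP from the product of enolase. It measured 191, 221, 221 and 188 CPM in fresh cells, 933, 1060, 1057 and 1066 in DMEM/F12 and 890, 1435, 1238 and 1755 in incubation medium spheroids. As for ENO1, the spheroid groups overlapped and both lay far above the fresh cells. The log2 fold changes were 2.33 (SE 0.16, edgeR adjusted p = 1.79e-08) and 2.7 (SE 0.17, edgeR adjusted p = 5.2e-09). The 3′ counts do not separate the splice forms of PKM.

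LDHA (ENSSSCG00025058148), the lactate dehydrogenase subunit of muscle and fast-growing tissue, had the largest log2 fold change of the 8 in incubation medium spheroids. HK2 (3.21) and ENO1 (3.14) came next and were within its error. Fresh cells held 54.6, 47.5, 62.8 and 49.6 CPM, DMEM/F12 spheroids 201, 233, 328 and 224 CPM, and incubation medium spheroids 238, 524, 457 and 831 CPM. All spheroid libraries were above the fresh cells, and incubation medium replicate 1 fell within the DMEM/F12 range. LDHA rose by a log2 fold change of 2.20 (SE 0.29, edgeR adjusted p = 9.94e-06) in DMEM/F12 spheroids and 3.25 (SE 0.30, edgeR adjusted p = 2.68e-07) in incubation medium spheroids.

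**Figure D2:**
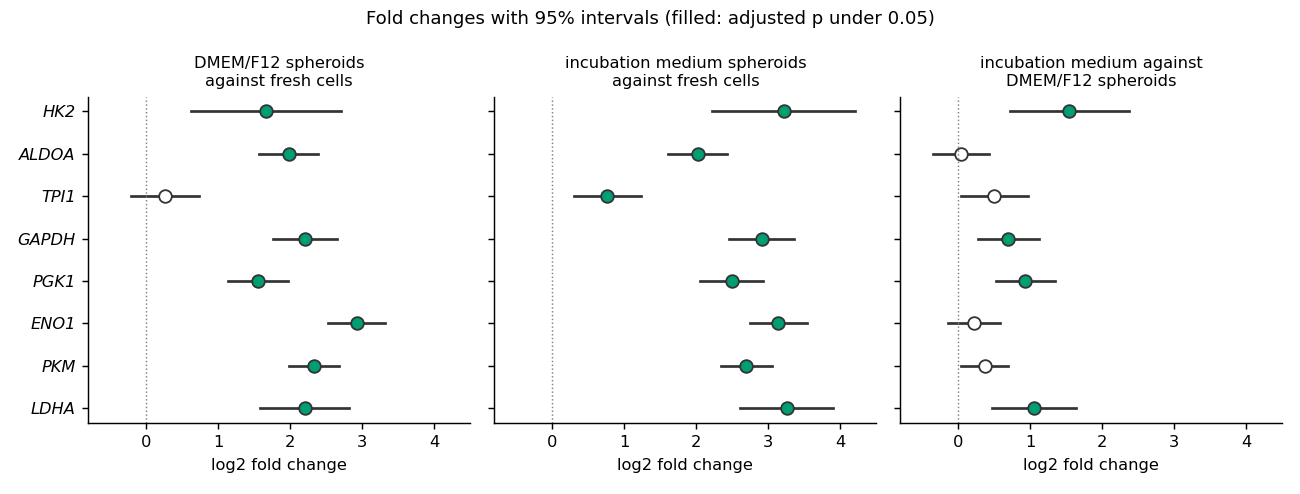
Log2 fold changes of the 8 enzymes in the 3 comparisons, in pathway order, with 95% intervals and filled points where the edgeR adjusted p was under 0.05. Against fresh cells ENO1 lies at 2.92 and 3.14 and TPI1 nearest to 0, at 0.27 and 0.77, while between the media HK2, GAPDH, PGK1 and LDHA are filled.

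Between the media, the enzymes fell into a group called higher in incubation medium and a group that was not called. Those called were HK2, LDHA, PGK1 and GAPDH, 4 of 8, with 0 called lower. Over all genes 12.7% were called higher and 12.3% lower, and only PGK1 of the 8 had every incubation medium library above every DMEM/F12 library, against 13.9% of all genes. The log2 difference was 1.54 for HK2 (SE 0.38, edgeR adjusted p = 0.00906), 1.05 for LDHA (SE 0.27, edgeR adjusted p = 0.0113), 0.94 for PGK1 (SE 0.19, edgeR adjusted p = 0.00261) and 0.70 for GAPDH (SE 0.20, edgeR adjusted p = 0.0185). TPI1 (0.50, edgeR adjusted p = 0.107), PKM (0.37, edgeR adjusted p = 0.0956), ENO1 and ALDOA (0.04, edgeR adjusted p = 0.90) were not called. The 95% intervals, which are not adjusted for the number of genes, lay above 0 for TPI1 (0.04 to 0.97) and PKM (0.04 to 0.70). Those of ENO1 (-0.14 to 0.58) and ALDOA (-0.35 to 0.43) included 0. The median over the 8 was 0.60, and over all genes 0.00.

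Single libraries weighed on this comparison. Without incubation medium replicate 4 the log2 differences fell to 1.10 for HK2 (edgeR adjusted p = 0.0289), 0.72 for LDHA (edgeR adjusted p = 0.0329), 0.67 for PGK1 (edgeR adjusted p = 0.00257) and 0.39 for GAPDH (edgeR adjusted p = 0.0244), so 4 of 8 were again called, and that for ALDOA became -0.19. Without incubation medium replicate 1, 6 of 8 were called, with TPI1 at 0.69 (edgeR adjusted p = 0.0108) and PKM at 0.52 (edgeR adjusted p = 0.00582) joining. Without DMEM/F12 replicate 1 the call for GAPDH was lost (0.63, edgeR adjusted p = 0.0519), leaving 3 of 8. With the replicate number as a block, PKM was called (0.34, edgeR adjusted p = 0.0455), which made 5 of 8.

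The enzymes kept a common order of libraries within the spheroid groups. Among incubation medium libraries, replicate 1 was the lowest for 8 of 8 enzymes and replicate 4 the highest for 8 of 8. Over all tested genes these libraries were the lowest for 25.4% and the highest for 29.8%. In DMEM/F12 spheroids, replicate 1 was the lowest for 8 of 8 (28.7% of all genes) and replicate 3 the highest for 7 of 8 (31.7% of all genes), the exception being PKM, which was highest in replicate 4. In fresh cells no library was the highest or the lowest for more than 3 of 8. The 8 rows took 0.533% of the counts in incubation medium replicate 1, 0.798% in replicate 2, 0.741% in replicate 3 and 1.23% in replicate 4.

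The spread was widest in incubation medium. There the coefficient of variation over 4 libraries ran from 27.3% for PKM and 32.1% for ENO1 to 59.4% for HK2, while the median over the 7197 genes with a mean of at least 20 CPM was 9.89%. In DMEM/F12 spheroids it ran from 6.26% for PKM to 33.9% for HK2, with ENO1 at 11.3% and a median over genes of 9.22%. In fresh cells GAPDH had the smallest value, 1.64%, and ENO1 had 5.06%, against a median of 10.2%. The highest incubation medium library held 2.1 times the lowest for ENO1 and 3.49 times for LDHA.

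**Figure D3:**
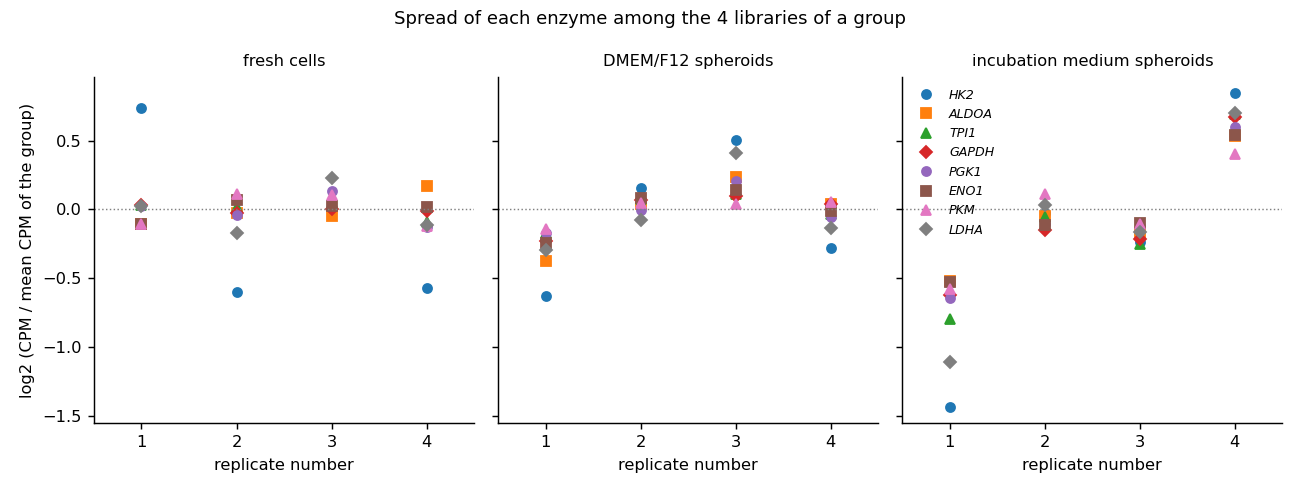
Deviation of each enzyme from its own group mean (log2 of CPM over the mean CPM of the group) by replicate number, with 1 colour and symbol per enzyme. In incubation medium spheroids replicate 1 lies below 0 and replicate 4 above 0 for 8 of 8 enzymes, and the fresh cells scatter narrowly except for HK2.

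ENO1 and its relatives ENO2 and ENO4 moved in opposite directions. ENO2 encodes the enolase known from neurons, ENO3 that of muscle, and ENO4 an enolase known from sperm. ENO2 measured 77.8, 59.2, 71.8 and 57.2 CPM in fresh cells, 15.1, 10.2, 12.4 and 12.7 in DMEM/F12 and 9.07, 9.48, 10.8 and 29.6 in incubation medium spheroids. All fresh libraries were above all spheroid libraries. The log2 fold change of ENO2 was -2.40 (SE 0.30, edgeR adjusted p = 6.21e-06) in DMEM/F12 spheroids and -2.18 (SE 0.30, edgeR adjusted p = 1.36e-05) in incubation medium spheroids. ENO4 fell from 47.5 ± 13.1 CPM (SD, n = 4) in fresh cells to 5.29 ± 2.32 and 4.66 ± 1.45, with log2 fold changes of -3.17 and -3.35 (edgeR adjusted p = 1.36e-07 and 9.38e-08). ENO3 was at 0.897 to 3.65 CPM in every library and was called in no comparison. ENO4 fell beside the multiciliated cell list given above. Of that list, 5 of 5 measured genes were called lower in both media (35.7% and 35.8% of all genes). The part of that list in the result was not tested.

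The ratio of ENO1 to ENO2 does not depend on library scaling. On the log2 scale it was 0.78 to 1.35 in the fresh libraries, 5.93 to 6.82 in the DMEM/F12 libraries and 5.96 to 6.95 in the incubation medium libraries. The mean rose by 5.32 from fresh cells to DMEM/F12 spheroids and by 5.45 to incubation medium spheroids, with no overlap. A two-sided exact permutation test gave p = 0.0286 for each, the smallest possible with 4 against 4, and 0.0429 after Benjamini-Hochberg adjustment over 6 tests of ratios. Paired by replicate number, an exact sign-flip test gave p = 0.125 for each, the smallest that 4 pairs allow, so no ratio could be called in that design. The media differed by 0.13 (exact permutation p = 0.629).

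Lactate dehydrogenase also showed a change of balance. LDHB, the subunit of heart muscle and other oxidative tissue, measured 314, 309, 304 and 277 CPM in fresh cells and 309, 288, 319 and 297 in DMEM/F12 spheroids, where edgeR did not call it (log2 fold change 0.01, SE 0.07, adjusted p = 0.893). It measured 461, 484, 474 and 445 CPM in incubation medium spheroids, above every other library (log2 difference 0.62 from DMEM/F12 spheroids, SE 0.07, edgeR adjusted p = 3.15e-05). Unlike LDHA, LDHB was not highest in incubation medium replicate 4 but lowest there. The log2 ratio of LDHA to LDHB was -2.7 to -2.28 in fresh libraries, -0.62 to 0.04 in DMEM/F12 libraries and -0.95 to 0.90 in incubation medium libraries. It rose by 2.17 and 2.50 against fresh cells (exact permutation p = 0.0286 for each, the smallest possible, adjusted 0.0429). The sign-flip test of pairs again gave an exact p of 0.125 for each, the smallest possible. The difference of 0.32 between the media was within the spread (exact permutation p = 0.486).

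The aldolases parted in the same way as the enolases. ALDOC, known from brain, measured 74.8, 88.6, 64.5 and 103 CPM in fresh cells, 23.6, 28.7, 28.6 and 23.5 in DMEM/F12 and 22.3, 35.9, 41.1 and 51.3 in incubation medium spheroids. All fresh libraries were higher than all spheroid libraries. The log2 fold change was -1.66 (SE 0.21, edgeR adjusted p = 5.67e-06) and -1.14 (SE 0.20, edgeR adjusted p = 0.00016). The media difference of 0.53 was not called (edgeR adjusted p = 0.0807), and with the replicate number as a block it was (0.49, edgeR adjusted p = 0.0341).

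**Figure D4:**
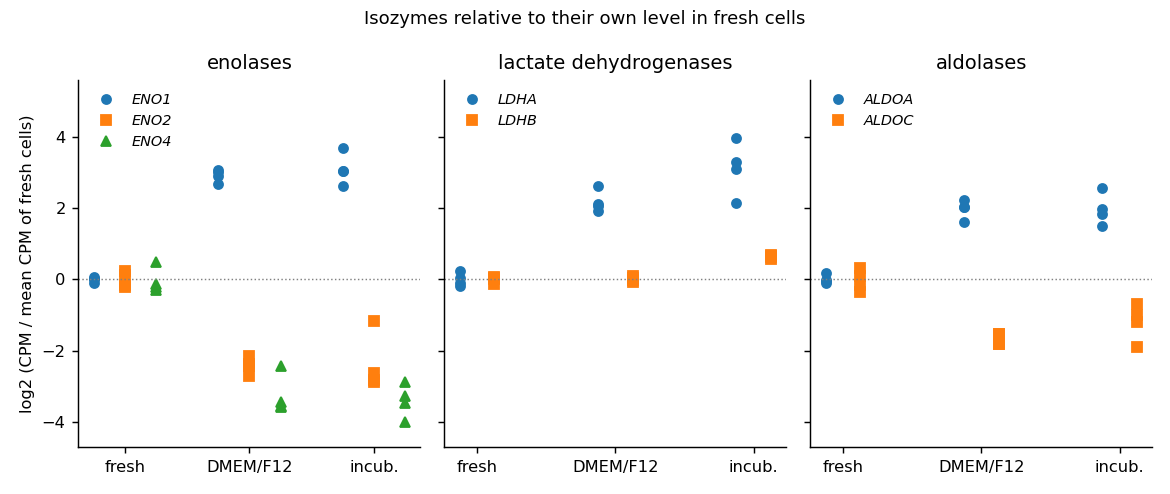
Enolases, lactate dehydrogenases and aldolases in each library as log2 of CPM over the gene's own mean in fresh cells (dotted line at 0), 1 point per library. ENO1, LDHA and ALDOA lie above the line in every spheroid library, ENO2, ENO4 and ALDOC lie below it, and LDHB lies above it in every incubation medium library.

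Of the list of 20 other glycolytic enzymes and isozymes, 18 had a row and 15 were tested. In DMEM/F12 spheroids 6 of 15 were called higher and 5 lower than in fresh cells, with a median log2 fold change of 0.00, where all tested genes had 35.1% and 35.7%. The corresponding numbers in incubation medium were 6 higher and 4 lower, with a median of 0.35, where all tested genes had 35.8% and 35.8%. These shares are near the background, against which the counts of the later lists are also to be read. PGAM1, the mutase just before enolase, was higher in both media (log2 fold change 1.41 and 1.80, edgeR adjusted p = 1.25e-05 and 1.17e-06), as was GPI, the isomerase after hexokinase (0.96 and 1.79, edgeR adjusted p = 0.000938 and 3.43e-06). PFKL, the liver-type phosphofructokinase, rose from 82.3, 88.8, 90.1 and 83.3 CPM in fresh cells to 157, 244, 222 and 300 CPM in incubation medium spheroids (log2 fold change 1.42, edgeR adjusted p = 1.85e-06). Between the media 3 of 15 were higher and 2 lower in incubation medium (12.7% and 12.3% of all genes), GPI (0.83, edgeR adjusted p = 0.0087) and PFKL (0.60, edgeR adjusted p = 0.0105) among the higher.

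Of 13 sugar and lactate transporters listed, 9 were tested. In DMEM/F12 spheroids 3 were higher and 2 lower (35.1% and 35.7% of all genes). In incubation medium spheroids 5 were higher and 2 lower (35.8% and 35.8% of all genes). SLC5A1, which takes up glucose with sodium, stood at 8.01, 7.17, 7.48 and 4.90 CPM in fresh cells and at 18, 46.5, 77.4 and 32.3 CPM in DMEM/F12 spheroids (log2 fold change 2.65, edgeR adjusted p = 4.34e-05). It stood at 32.2, 45.9, 54.4 and 26.1 CPM in incubation medium spheroids (2.52, edgeR adjusted p = 7.04e-05). SLC2A3, a high-affinity glucose carrier, went the other way, from 64.7 to 82.9 CPM in fresh cells to 4.92 to 10.3 in DMEM/F12 and 5.13 to 47.8 in incubation medium spheroids (log2 fold change -3.33 and -1.91, edgeR adjusted p = 3.01e-05 and 0.00153). Without incubation medium replicate 4 the latter value of SLC2A3 was -2.79 (edgeR adjusted p = 1.72e-06).

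SLC16A3 exports lactate. It measured 10.1, 11.5, 12.1 and 13.3 CPM in fresh cells, 17.5, 24.2, 34.4 and 23.1 in DMEM/F12 and 14.4, 56.7, 43.9 and 187 in incubation medium spheroids. Every spheroid library was above the fresh cells, and incubation medium replicate 4 alone was far above the rest. The log2 fold change of SLC16A3 was 2.68 in incubation medium spheroids (edgeR adjusted p = 0.000864; 1.72 without their replicate 4, edgeR adjusted p = 0.000808) and 1.07 in DMEM/F12 spheroids, not called (edgeR adjusted p = 0.123). The DMEM/F12 value was called with the replicate number as a block (1.12, edgeR adjusted p = 0.0392), with only the groups compared (edgeR adjusted p = 0.000431) and without incubation medium replicate 1 or 4 (edgeR adjusted p = 0.0342 and 0.0128). The media differed by 1.61 (edgeR adjusted p = 0.0374), and by 0.63 without replicate 4 (edgeR adjusted p = 0.195). The call was also lost without DMEM/F12 replicate 1, 2 or 4 (edgeR adjusted p = 0.0902, 0.0808 and 0.0822) and with only the media in the fit (edgeR adjusted p = 0.0745). SLC2A1, the common glucose carrier, was higher in incubation medium spheroids (0.57, edgeR adjusted p = 0.026), a call that was lost without fresh replicate 3 or 4 or without incubation medium replicate 2 (edgeR adjusted p = 0.0527, 0.0819 and 0.0901).

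Of 18 genes listed as regulators of glycolytic flux or of pyruvate entry into mitochondria, 15 were tested. In DMEM/F12 spheroids 7 were higher and 4 lower (35.1% and 35.7% of all genes), and in incubation medium spheroids 8 were higher and 3 lower (35.8% and 35.8%). PDK4, a kinase that switches pyruvate dehydrogenase off, had the largest change of those named here. It stood at 47.2, 67.8, 65.4 and 73.5 CPM in fresh cells, 28.0, 10.3, 9.66 and 11.8 in DMEM/F12 and 7.16, 0.934, 0.862 and 1.61 in incubation medium spheroids. The 3 groups did not overlap, with log2 fold changes against fresh cells of -2.08 and -4.54 and between the media of -2.46 (edgeR adjusted p = 0.000328, 1.48e-06 and 0.00335). Without incubation medium replicate 1, the highest of its group for PDK4, the incubation medium values were -5.77 (edgeR adjusted p = 1.17e-07) and -3.71 (edgeR adjusted p = 0.000193). PDHA1 and PDHB, subunits of pyruvate dehydrogenase, were higher in both media, by 0.56 and 0.58 in DMEM/F12 and 0.84 and 0.90 in incubation medium spheroids on the log2 scale (edgeR adjusted p between 1.76e-06 and 0.00192). Between the media 4 of 15 were higher and 4 lower in incubation medium (12.7% and 12.3% of all genes). PFKFB3 was among the higher (1.13, edgeR adjusted p = 0.024), with 96.6 CPM in incubation medium replicate 4 and 21.8 to 43.0 in the others.

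The pentose phosphate pathway branches off after hexokinase and makes NADPH and ribose. All 4 tested genes of the pentose phosphate pathway, of 8 listed, were called higher in each medium, with medians of 0.90 and 1.17. Of all genes, 35.1% were called higher in DMEM/F12 and 35.8% in incubation medium spheroids. TKT, the transketolase that returns sugars to glycolysis, measured 71.7, 70.1, 72.2 and 62.7 CPM in fresh cells, 314, 276, 300 and 284 in DMEM/F12 and 737, 585, 604 and 595 in incubation medium spheroids. Its groups did not overlap (log2 fold change 2.08 and 3.19, edgeR adjusted p = 3.18e-10 and 8.98e-12, and 1.10 between the media, edgeR adjusted p = 2.94e-06). TKT was highest in incubation medium replicate 1, the library in which the 8 enzymes were lowest.

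Of 18 genes of gluconeogenesis and glycogen, 10 were tested. In DMEM/F12 spheroids 4 were higher and 1 lower (35.1% and 35.7% of all genes). In incubation medium spheroids 4 were higher and 0 lower (35.8% and 35.8% of all genes). PCK2, the mitochondrial enzyme that makes phosphoenolpyruvate, rose from 9.01 ± 2.64 CPM (SD, n = 4) in fresh cells to 50.8 ± 9.51 and 109 ± 11.4 (log2 fold change 2.49 and 3.59, edgeR adjusted p = 2.95e-08 and 1.02e-09). G6PC3 was higher by 1.31 and 1.21 (edgeR adjusted p = 2.2e-07 and 4.78e-07). PGM1, which links glycogen to glycolysis, was higher by 0.73 and 1.03 (edgeR adjusted p = 0.00166 and 8.96e-05).

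Hypoxia-inducible factor consists of a subunit that oxygen destabilises, such as HIF1A, and the stable partner ARNT. The RNA of HIF1A measured 126, 116, 144 and 129 CPM in fresh cells, 214, 202, 250 and 216 in DMEM/F12 and 193, 164, 213 and 143 in incubation medium spheroids. It was called higher in both media (log2 fold change 0.78, edgeR adjusted p = 4.04e-05, and 0.47, edgeR adjusted p = 0.00263), with overlap between fresh cells and incubation medium. Within incubation medium spheroids HIF1A was lowest in replicate 4, the library in which the 8 enzymes were highest. EGLN1, a regulator on the same list, was highest there, at 98.7, 108, 97.9 and 194 CPM in replicates 1 to 4. The other tested genes of the list were neither highest nor lowest in that library. ARNT was higher in incubation medium spheroids, at 64.3 ± 6.69 CPM (SD, n = 4) against 34.9 ± 2.90 in DMEM/F12 spheroids (log2 difference 0.88, edgeR adjusted p = 3.07e-05). Of the 10 subunits and regulators listed, 5 were tested. Of these, 3 and 4 were called higher in the respective media (35.1% and 35.8% of all genes). RNA levels do not measure the amount of the protein.

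Genes known to respond to hypoxia but outside glycolysis went both ways in DMEM/F12 spheroids and were mostly higher in incubation medium spheroids. Of 20 listed, 17 were tested. In DMEM/F12 spheroids 5 were higher and 3 lower than in fresh cells, where 35.1% and 35.7% of all genes were, with a median log2 fold change of 0.24, where the 8 enzymes had 2.09. In incubation medium spheroids 11 were higher and 1 lower (35.8% and 35.8% of all genes), with a median of 1.07. Between the media 8 were higher in incubation medium and 0 lower (12.7% and 12.3% of all genes), with a median of 0.82.

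AK4, a mitochondrial adenylate kinase, was among the higher in both media (log2 fold change 2.76, edgeR adjusted p = 4.56e-05, and 3.51, edgeR adjusted p = 3.64e-06). P4HA1, a collagen prolyl hydroxylase subunit, and ANKRD37 were among the lower in DMEM/F12 spheroids (-1.91, edgeR adjusted p = 2.17e-06, and -1.63, edgeR adjusted p = 0.00177). P4HA1 measured 123, 118, 130 and 107 CPM in fresh cells and 24.8, 32.5, 40.0 and 30.1 in DMEM/F12 spheroids. In incubation medium spheroids P4HA1 was at 40.2, 63.8, 52.9 and 96 CPM, also below every fresh library. BHLHE40 went up, from 31.5, 26.5, 19.8 and 16.1 CPM in fresh cells to 58.1, 63.0, 85.1 and 54.6 in DMEM/F12 spheroids. It measured 66.2, 89.7, 84.4 and 108 CPM in incubation medium spheroids. CA12, a carbonic anhydrase of the cell surface, separated the media most among the genes of this list with a mean of at least 20 CPM. It measured 18.5, 7.09, 6.75 and 11.4 CPM in DMEM/F12 and 83.5, 61.5, 70.8 and 98.6 in incubation medium spheroids (log2 difference 2.84, edgeR adjusted p = 1.44e-05).

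The order of libraries seen for the enzymes was partly shared by this list. Incubation medium replicate 4 was the highest of its group for 15 of 17 of these genes (29.8% of all genes) and replicate 1 the lowest for 11 of 17 (25.4%). In DMEM/F12 spheroids replicate 3 was the highest for 12 of 17 (31.7% of all genes). There replicate 1, the lowest for 8 of 8 enzymes, was the lowest for 7 of 17 (28.7% of all genes). BNIP3, a mitophagy receptor, was an example, at 65.9, 119, 109 and 425 CPM in incubation medium spheroids. Its log2 difference from fresh cells was 2.18 (edgeR adjusted p = 0.000554) and that between the media was 1.20, not called (edgeR adjusted p = 0.0535). Without replicate 4 these differences of BNIP3 were 1.32 (edgeR adjusted p = 5.75e-05) and 0.32 (edgeR adjusted p = 0.259).

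Of 13 other transcription factors and sensors linked to glycolytic genes, 8 were tested. In DMEM/F12 spheroids 2 were higher and 4 lower (35.1% and 35.7% of all genes). In incubation medium spheroids 4 were higher and 3 lower (35.8% and 35.8% of all genes). TXNIP, which restrains glucose uptake and whose gene is switched on by glucose through the factor MondoA, measured 994, 1272, 1075 and 1460 CPM in fresh cells. It measured 682, 622, 379 and 610 CPM in DMEM/F12 and 519, 371, 310 and 390 in incubation medium spheroids. All fresh libraries were above all spheroid libraries (log2 fold change -1.07, edgeR adjusted p = 0.000149, and -1.59, edgeR adjusted p = 3.62e-06). The media difference of -0.53 was not called (edgeR adjusted p = 0.0529), and with the replicate number as a block it was (-0.52, edgeR adjusted p = 0.0103).

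ARRDC4, a relative of TXNIP and a target of the same sensor, was lower too (-1.28 and -1.37, edgeR adjusted p = 1.15e-06 and 5.9e-07). ESRRA, a nuclear receptor of energy metabolism, was higher in each medium, at 49.7 ± 4.63 and 97.5 ± 11.2 CPM against 16 ± 1.60 (SD, n = 4) in fresh cells (edgeR adjusted p = 1.66e-08 and 2.38e-10).

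**Figure D5:**
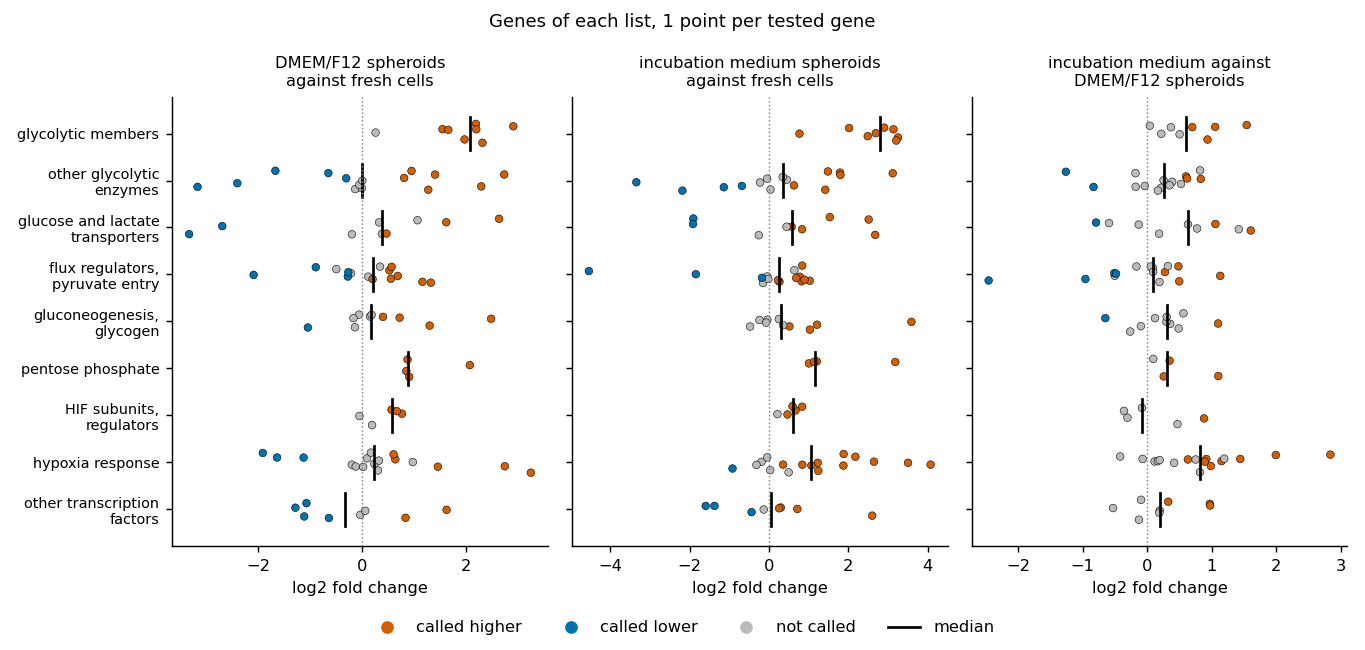
Log2 fold changes of the tested genes of each list in the 3 comparisons, 1 point per gene, coloured by call, with a bar at the list's median. The 8 enzymes lie to the right of 0 in every comparison, with medians of 2.09, 2.80 and 0.60, while the other lists plotted, apart from the pentose phosphate pathway, hold points on both sides of 0 in at least 1 comparison.

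Likeness to ENO1 was measured as the root mean square difference in log2 CPM over the 12 libraries, after each gene was centred on its own mean. Among 5548 genes with a symbol and a mean of at least 20 CPM, the closest were EMP3, a membrane protein of epithelial and other cells (0.231), PPP1R14B, an inhibitor of protein phosphatase (0.238), BIRC5, a protein of dividing cells (0.249), PKM (0.269) and the tubulin TUBB (0.282). The first of these, EMP3, measured 4.54 ± 0.573, 36.9 ± 6.92 and 33.6 ± 6.12 CPM (SD, n = 4) in fresh cells, DMEM/F12 and incubation medium spheroids, and BIRC5 4.58 ± 0.628, 32.6 ± 1.61 and 42.8 ± 6.71. BIRC5 is on the list of dividing cells, of which 5 of 5 measured genes were called higher in both media (35.1% and 35.8% of all genes). GAPDH had rank 9, LDHA 34, ALDOA 72 and PGK1 114 among the 5548 genes, while TPI1 stood far down at 1766. HK2 was not ranked because its mean was under 20 CPM. The measure is a description of these 12 libraries, and the step from fresh cells to spheroids enters it for every gene.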

How the data were processed

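Bulk RNA of 12 libraries in 3 labelled groups of 4 was analysed from 1 deposited table. Per the file headers it holds the authors' expected counts, of whose nonzero values 19.1 to 20.5% were not whole. The deposited CPM, per the file headers, equalled the count divided by the library total to within 5.0e-06. The submitters' processing notes name fastp 0.24.0, STAR 2.7.11, SAMtools 1.22.1 and featureCounts (Subread 2.1.1), whereas the genome build and annotation are not given in the sources used here. Of 30553 rows, 92 spike-in and transgene rows (at most 0.000614% of counts) were left out. Identifiers matched neither gene table (0 of 30461), so symbols are the file's, no positions are given, and 17202 gene rows (56.5%) have no symbol. Without gene lengths, levels are compared between libraries and not between genes.

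Counts were rounded and tested with edgeR 4.0.16 in R 4.3.3: genes kept by filterByExpr, scaling by TMM, and 1 quasi-likelihood fit over the 12 libraries, Benjamini-Hochberg adjusted over 14070 genes. The design had allowed for counts that were not whole. Printed CPM use TMM-scaled library sizes. SE is the absolute log2 fold change over the root of F. Intervals use 14.05 degrees of freedom and log2 CPM a prior count of 2. The fit was run on simulated data in which few genes were changed, up and down alike, in the incubation medium group only. That setting is simpler than these data, so it does not measure the error rate here. Totals of 5045187 to 8603774 counts limit the precision of low genes such as HK2, and reads amplified by PCR with no molecular identifiers named are not independent molecules. No 2 replicates agreed within sampling noise (their chi-square was 5.44 to 15.4 times its degrees of freedom).

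Replicate numbers in the labels are shared by the groups. Deviations of same-numbered libraries from their group means correlated at 0.196 to 0.516 in 12 of 12 pairs, each highest with its own number. The main fit and the permutation tests left the numbers out. The numbers were treated as pairing only in the replicate block and the sign-flip tests, and the labels do not state a pairing.

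The members and lists were chosen with earlier results of these data known. Named from each list were at most the 4 genes with the largest change in a comparison among those with a mean of at least 20 CPM, and the 5 genes most like ENO1. The isozymes ENO3, ENO4, ALDOC and LDHB were named in further comparisons after their values were seen. BHLHE40, G6PC3, PFKFB3 and EGLN1 were also described, and were left out of the checks of outlying libraries and of alternatives. Of 9 planned tests of ratios, 3 needed HK1 and were not run. Alternatives were other scalings, DESeq2 1.42.0, other filters, only the groups compared, the replicate block, counts cut down to whole numbers, and each library left out.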

Additional observations from a re-analysis of the deposited data

Results flagged for a closer look

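In 126 sets of 4 libraries, over the genes named and the 3 groups and with the ratios, the highest or lowest library was checked for a gap to the next beyond Dixon's 95% critical value. There were 10 such values, and chance gives about 5% of sets. Of the enzymes, PKM was low in DMEM/F12 replicate 1, at 932.6 CPM. Of its relatives, ENO2 was high in incubation medium replicate 4, at 29.55 CPM, and ENO4 was high in DMEM/F12 replicate 1, at 8.758 CPM.

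Incubation medium replicate 4 also stood apart for BNIP3 (424.6 CPM) and PGM1 (142.5 CPM), both high. Incubation medium replicate 1 stood apart for TKT (737 CPM) and PDK4 (7.158 CPM), both high, and DMEM/F12 replicate 1 was high for PDK4 as well (27.98 CPM). SLC2A1 was low in DMEM/F12 replicate 4, at 73.24 CPM. Among the fresh cells, CA12 was high in replicate 1, at 19.49 CPM.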

How the results depend on the processing

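ENO1 was called against fresh cells in both media under all 20 alternatives (log2 fold change 2.89 to 3.01 and 2.92 to 3.30), and the counts of enzymes and of genes called stayed within 1.5 times. Between the media ENO1 was called under none, at -0.013 to 0.359 with a library left out. With the replicate block the log2 ratio of LDHA to LDHB differed from fresh cells by 2.172 and 2.496 and that of ENO1 to ENO2 by 5.315 and 5.447, each with an exact sign-flip p of 0.125, the smallest that 4 pairs allow. With a library left out these differences were 2.051 to 2.272 and 2.197 to 2.814, and 5.188 to 5.484 and 5.32 to 5.65, each with an exact permutation p of 0.0571, the smallest that 3 against 4 allows. Fewer samples set these p-values. Between the media the ENO1 to ENO2 difference was -0.037 to 0.335 with a library left out.

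Signs turned only for small differences of ENO1, ALDOA, LDHB, ENO3 and the ENO1 to ENO2 ratio that were not called. ALDOA between the media was -0.053 with library totals and -0.192 to 0.178 with a library left out. LDHB in DMEM/F12 against fresh cells was -0.017 with a mean of at least 10 counts and -0.026 to 0.052 with a library left out. ENO3 ran from -0.395 to 0.189 in DMEM/F12 and -0.226 to 0.357 in incubation medium against fresh cells, and from -0.098 to 0.384 between the media. The causes were not tested. The replicate block changed the calls of PKM, ALDOC, SLC16A3 and TXNIP given in the report, all gained, and no other call among the genes named. BNIP3 between the media was called with no filter (1.177) and ran from 0.324 to 1.47 with a library left out, called without incubation medium replicate 1 or 3. The median of all genes moved by over 0.1 with DESeq2's Wald test, to -0.125 and -0.144 against fresh cells. That test was run on every gene with a count, with no filter, so its set of genes differed too. In edgeR with no filter the medians were -0.074 and -0.104.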
